A study of Mus musculus with 16 samples.

Results

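Mpo, Elane, Prtn3, Ctsg, Ms4a3, Gfi1, Cebpa and Cebpe were chosen by gene symbol as a set of genes that mark the promyelocyte stage of neutrophil development, and all 8 were found among the 13344 genes of the stroma table and the 15080 genes of the tumor table. BCR-ABL+, Arf-/- B-ALL cells carrying mCherry had been given by tail vein, 500000 per mouse, to C57BL/6J mice that were wild type (WT) or Il6-/- (IL-6 KO), 6 to 8 weeks old and of both sexes, and the marrow of femurs and tibias was taken on day 8 from mice that had no drug treatment. Live single cells were sorted into mCherry+ leukemia cells (tumor) and mCherry- cells (stroma), which gave 4 groups of 4 libraries each: WT tumor, IL-6 KO tumor, WT stroma and IL-6 KO stroma. The leukemia cells had the same genotype in both hosts, so that in tumor the groups differ by the host and not by the Il6 gene of the injected cells. The stroma gate holds every marrow cell without mCherry after red cell lysis, the blood-forming cells included, and whether each library came from a mouse of its own is not given in the labels, so p-values measure the spread between these libraries.

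Neutrophils form their granules in waves as they mature in the marrow. Promyelocytes make the primary (azurophil) granules, filled with myeloperoxidase and the serine proteases elastase, proteinase 3 and cathepsin G, and later precursors shut these genes down and make the secondary granules, so that circulating neutrophils keep the proteins but little of the RNA. C/EBPα starts the program from a shared progenitor, C/EBPε carries it into the secondary granule stage, GFI1 represses genes of the monocyte fate, and Ms4a3 marks the granulocyte and monocyte progenitor.

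B lineage genes were high in the tumor gate, and neutrophil and globin genes were found in both gates. Mean normalized counts in WT tumor were 1032 for the granule gene Ngp, 202 for Mpo and 545 for the globin gene Hba-a1. In WT stroma they were 1793, 173 and 57260. The summed normalized count of 15 B lineage genes was 179200 to 203600 per library in tumor and 1517 to 2519 in stroma, and the 2 tables were normalized separately. In stroma the markers of blood-forming cells stood over those of the niche: 14 erythroid genes summed to 65060 to 264700, while of 14 mesenchymal and endothelial genes 7 were in the table, at a sum of 223.6 to 1708, and Cxcl12, Lepr, Pdgfra, Bglap, Sp7, Cdh5 and Emcn were not analysed here in stroma. Libraries of a group were close in tumor (Spearman rho between 2 libraries of 0.975 to 0.990 over all genes) and less so in stroma (0.827 to 0.899 in WT and 0.745 to 0.845 in IL-6 KO). IL-6 KO stroma library 4 stood apart, with 61.5% of its summed normalized counts in the single gene CT010467.1 against at most 0.0387% in the other stroma libraries. Rn7s1, a 7SL RNA gene, held 71.5 to 79.0% of the sum in IL-6 KO stroma libraries 1 to 3, 10.9% in library 4 and 19.2 to 50.1% in WT stroma, and its part in the stroma results was not tested. The stroma differences of the 8 genes are therefore given with and without that library.

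The 8 genes lie on 6 chromosomes of GRCm38 (GENCODE vM21), and Elane and Prtn3 are neighbours on chromosome 10. Mpo is at chr11:87793581-87804413 on the plus strand, Prtn3 at chr10:79874476-79883174 and Elane at chr10:79886247-79888215, both on the plus strand, Ctsg at chr14:56099881-56102574 on the minus strand and Ms4a3 at chr19:11629496-11640851 on the minus strand. The regulators are Gfi1 at chr5:107716657-107726036 on the minus strand, Cebpa at chr7:35119293-35121928 on the plus strand, a gene of 1 exon, and Cebpe at chr14:54710360-54712174 on the minus strand. Values are for whole genes, summed over transcripts. The annotation places an antisense gene over Mpo (Gm11505) and over Cebpa (Gm45091), the noncoding A430072P03Rik over Gfi1, and 159 bases of Plppr3, on the opposite strand, over Prtn3. The library kit kept strand, but whether the counting used it is not given in the sources used here, so reads from these overlaps could be split between the partners. Of the 4 partners Plppr3 was in the tables, with a log2 change of -0.10 in tumor (SE 0.50, adjusted p = 0.905 by limma), against 1.76 for Prtn3.

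The 250 bases before the RefSeq start (GRCm38.p6) are shown for the 4 granule protein genes, as the promoters of the granule contents themselves, and these windows were picked with their shared letters known. Capitals mark GAGGAA, the core of the site bound by PU.1, the myeloid ETS-family factor. The windows are chr11:87793534-87793783 (plus strand), chr10:79886062-79886311 (plus), chr10:79879417-79879666 (plus) and chr14:56102575-56102824 (minus). Each is written 5′ to 3′ on the strand of its gene and ends at the base before the RefSeq start. For Mpo, Elane and Prtn3 that start differs from the GENCODE start. The Prtn3 window thus lies wholly inside the gene span given above, and those of Mpo and Elane lie partly inside theirs.
Mpo: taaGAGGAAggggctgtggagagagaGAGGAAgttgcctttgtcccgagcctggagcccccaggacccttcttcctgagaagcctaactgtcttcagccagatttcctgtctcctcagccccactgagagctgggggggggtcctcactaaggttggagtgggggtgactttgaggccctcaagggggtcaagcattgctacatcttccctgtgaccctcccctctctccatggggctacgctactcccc
Elane: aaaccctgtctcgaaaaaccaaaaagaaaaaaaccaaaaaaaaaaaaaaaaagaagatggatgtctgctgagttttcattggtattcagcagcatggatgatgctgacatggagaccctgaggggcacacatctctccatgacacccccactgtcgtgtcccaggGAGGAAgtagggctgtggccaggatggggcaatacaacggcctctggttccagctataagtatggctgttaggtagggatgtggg
Prtn3: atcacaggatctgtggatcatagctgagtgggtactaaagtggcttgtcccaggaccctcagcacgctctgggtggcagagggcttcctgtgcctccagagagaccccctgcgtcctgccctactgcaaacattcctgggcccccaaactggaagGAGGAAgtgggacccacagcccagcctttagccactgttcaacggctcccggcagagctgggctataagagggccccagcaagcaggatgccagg
Ctsg: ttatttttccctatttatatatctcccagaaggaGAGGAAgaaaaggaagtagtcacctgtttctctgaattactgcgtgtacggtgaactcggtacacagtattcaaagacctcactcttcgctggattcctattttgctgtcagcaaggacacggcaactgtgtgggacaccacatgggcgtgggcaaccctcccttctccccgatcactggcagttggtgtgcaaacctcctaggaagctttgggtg

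GAGGAA was searched on both strands and stood on the gene's own strand in all 4, at 2 places in Mpo (-247 to -242 and -224 to -219, counted from the start), and at -85 to -80 in Elane, -95 to -90 in Prtn3 and -216 to -211 in Ctsg. The same letters were found in 23.3% of 32851 RefSeq promoter windows of this length, and in none of the windows of Ms4a3, Gfi1 (2 starts) and Cebpa. Ms4a3 and Cebpa were called higher in tumor without these letters in their windows. No RefSeq window was matched to Cebpe. Of the other motifs searched on both strands, TAACNG (MYB) was found in Mpo and Elane and in 19.8% of all windows, TGTGGT (RUNX) in Ctsg and in 14.0%, TTGCNNAA (C/EBP) in 1 of the 2 windows of Gfi1 and in 9.56%, and AATCAC (GFI1) in none of the 7 genes and in 9.14%. None of these matches overlapped another. A match is a run of letters and not a measured binding site, and binding was not analysed here.

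In the leukemia cell libraries, 7 of the 8 genes were higher in IL-6 KO than in WT hosts and Gfi1 was not called. The granule protein genes were higher by 3.12 to 6.23 times, the ratio of group means, Ms4a3 by 8.29 times, Cebpa by 4.75 times and Cebpe by 5.36 times. The test was limma on log2(normalized count + 1) over the 14493 tumor genes with a mean normalized count over 10, all 8 genes among them, SE being the standard error and a gene being called at a Benjamini-Hochberg adjusted p under 0.05. Over all genes tested, 10.6% were called higher and 9.16% lower in IL-6 KO tumor, the background for the counts of the related lists too, and in 13.6% the IL-6 KO libraries all lay above the WT libraries, which held for 7 of the 8 genes, the same 7 that were called. The median log2 change of the 8 was 2.08, against -0.0059 over all genes tested. In bulk RNA, more cells of a type in the sorted sample and more RNA per cell cannot be told apart.

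Mpo, which makes hypochlorous acid in the phagocytic vacuole, had normalized counts of 226, 165, 159 and 257 in WT tumor libraries 1 to 4 and of 815, 935, 479 and 993 in IL-6 KO tumor libraries 1 to 4. The group means were 202 ± 47.7 and 805 ± 230.0 (SD, n = 4), a log2 change of 1.97 (SE 0.24, adjusted p = 0.00161 by limma). The lowest IL-6 KO library, library 3, was still well over the highest WT library. Elane, which encodes neutrophil elastase, stood at 108, 42.4, 53.9 and 74.7 in WT and at 213, 238, 134 and 285 in IL-6 KO tumor, a log2 change of 1.66 (SE 0.32, adjusted p = 0.00778 by limma). Here the groups came closest to each other, since WT library 1 was the highest of its group and IL-6 KO library 3 the lowest of the other. For Prtn3, the gene of proteinase 3 and next to Elane on the chromosome, the WT libraries lay in a narrow band at 58.1, 55.7, 63.3 and 73.5 and the IL-6 KO libraries at 237, 293, 114 and 259, a log2 change of 1.76 (SE 0.28, adjusted p = 0.00405 by limma). Ctsg, the gene of cathepsin G, was at 15.9, 14.5, 21.3 and 16.6 in WT and at 115, 169, 43.9 and 96.3 in IL-6 KO tumor, and its log2 change of 2.43 (SE 0.38, adjusted p = 0.00385 by limma) was the largest of the 4 granule protein genes, with no test made of the differences among them.

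Levels of the granule protein genes were set against each other per kilobase of the longest transcript. Of the summed level of the 4 in a library, Mpo made up 29.6 to 36.3% in WT tumor and 32.8 to 37.4% in IL-6 KO tumor, Elane 25.1 to 41.6% and 23.3 to 29.3%, Prtn3 21.4 to 31.6% and 23.9 to 27.6%, and Ctsg 5.98 to 10.9% and 9.43 to 16.3%. The ranges of the groups overlapped for all 4, so no share set the hosts apart, while the sum of the 4 was 171.9 to 264.6 per kilobase in WT and 465.2 to 1036 in IL-6 KO tumor.

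Ms4a3, a membrane protein of granulocyte and monocyte progenitors, was low in WT tumor, at 7.10, 4.70, 0.830 and 3.73, and at 32.4, 43.7, 14.7 and 44.8 in IL-6 KO tumor. Its log2 fold change was 2.85 (SE 0.57, adjusted p = 0.00951 by limma), and the size depends on the pseudocount, with 3.03 at 0.5 and 2.06 at 5, because the WT values are so low. The groups did not overlap, and IL-6 KO library 3 was again the lowest of its group.

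Cebpa and Cebpe, the C/EBP factors of early and late granulopoiesis, rose as the granule protein genes did. Cebpa was at 16.9, 9.87, 16.4 and 22.4 in WT tumor and at 83.5, 98.4, 52.3 and 77.5 in IL-6 KO tumor, a log2 change of 2.20 (SE 0.31, adjusted p = 0.00263 by limma). Cebpe was at 27.9, 7.24, 29.2 and 15.7 and at 111, 162, 37.8 and 118, a log2 change of 2.36 (SE 0.53, adjusted p = 0.0145 by limma). For Cebpe too the groups were close, IL-6 KO library 3 standing just over the highest WT library. Gfi1, the zinc finger repressor of the same stage, had values of 50.6, 60.5, 109 and 30.1 in WT and of 47.0, 88.7, 51.0 and 53.1 in IL-6 KO tumor, with a log2 change of 0.04 (SE 0.37, adjusted p = 0.954 by limma). The WT libraries of Gfi1 spread wider than the IL-6 KO libraries and covered 4 of 4 of them, and its direction turned negative when the libraries were scaled to the total without the 20 genes with the largest mean.

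**Figure D1:**
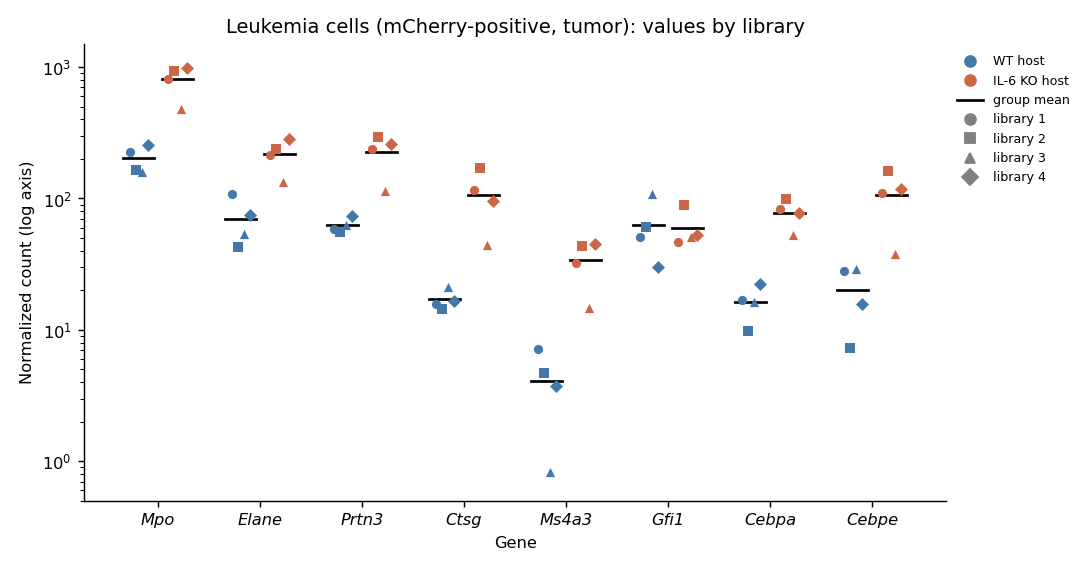
Normalized counts (log axis) of the 8 genes in the mCherry+ (tumor) libraries of WT (blue) and IL-6 KO hosts (orange). Each marker is 1 library, its shape the library number, and the black line is the group mean (n = 4). All but Gfi1 have the 4 IL-6 KO libraries above the 4 WT libraries, and the triangle of IL-6 KO library 3 is the lowest of its group for 7 of the 8 genes.

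The 7 genes that were called moved together from library to library. IL-6 KO tumor library 3 had the lowest value of its group for 7 of the 8 genes and library 2 the highest for 5. Over the 8 tumor libraries, Pearson's r of the log2 values was 0.811 to 0.985 (median 0.931) for the 21 pairs of genes without Gfi1, a measure that includes the difference between hosts. With each group's mean removed, it was 0.252 to 0.908 (median 0.715). The 7 pairs with Gfi1 had r of -0.112 to 0.230. These are descriptions over 8 libraries that share a normalization, and the pairs share genes.

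Some of the other genes of the azurophil granule were called. Of 18 listed partners (other enzymes, lysozyme, and the proteins that sort and release the granule) 16 were tested in tumor, 4 were called higher and 1 lower, and the median log2 fold change was 0.198. Lyz2, the lysozyme of myeloid cells, had a mean normalized count of 1566 ± 58.2 in WT and 3919 ± 1080.0 in IL-6 KO tumor, a log2 change of 1.28 (SE 0.18, adjusted p = 0.00257 by limma). Prss57, another serine protease of this granule, rose by 1.75 (SE 0.37, adjusted p = 0.012 by limma) on the same scale. Hexa, a lysosomal hexosaminidase subunit, and Rab27a, which docks granules for release, had log2 changes of 1.44 and 0.35. The one that fell was Srgn, the proteoglycan core serglycin that retains proteases in granules. Its means were 2144 ± 86.2 in WT and 1314 ± 194 in IL-6 KO tumor, a log2 change of -0.72 (SE 0.11, adjusted p = 0.00308 by limma). In WT stroma, normalized separately, the mean of Srgn was 54.1 ± 30.8, and which cells gave its tumor RNA was not tested.

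The transcription factors of granulopoiesis outside the set went both ways, with a positive log2 change in 10 of 19, and nothing is read from their counts. Of 19 tested, 1 was called higher and 4 lower, against 10.6% and 9.16% of all genes, with a median log2 change of 0.0012. Irf8, which steers progenitors to monocytes and is also expressed in B cells, was higher by 0.38 (SE 0.08, adjusted p = 0.0115 by limma). Meis1, a homeobox gene of stem cells and progenitors, was lower, with means of 142 ± 75.3 in WT and 35.8 ± 13.8 in IL-6 KO tumor and a log2 change of -1.89 (SE 0.37, adjusted p = 0.00839 by limma). Myb, Ets1 and Cbfb, all expressed in precursor B cells too, were lower by small amounts, with log2 changes of -0.23, -0.27 and -0.24. Spi1, the gene of PU.1, was at 2342 ± 160.5 in WT and 2618 ± 50.1 in IL-6 KO tumor, a log2 change of 0.16 (SE 0.07, adjusted p = 0.126 by limma), which did not pass the threshold.

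Of 20 surface and cytoplasmic genes of neutrophil precursors, 6 were called higher and 1 lower in tumor, with a median log2 change of 0.655. Fcnb, a ficolin of the late precursor, had means of 33.1 ± 6.25 in WT and 194 ± 74.0 in IL-6 KO tumor and a log2 change of 2.43 (SE 0.33, adjusted p = 0.00219 by limma). Hp, Hk3 and Igsf6 had log2 changes of 2.06, 1.79 and 1.74. Plac8, at a level far above the others (10300.0 ± 356 in WT and 6554 ± 432 in IL-6 KO tumor), fell, with a log2 change of -0.65 (SE 0.06, adjusted p = 0.000661 by limma). The progenitor markers Kit and Cd34 had log2 changes of 0.28 (SE 0.87, adjusted p = 0.846 by limma) and 0.96 (SE 0.75, adjusted p = 0.395 by limma).

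Genes of the next stages were higher in the same libraries. Of 13 genes on the secondary granule list, 10 were called higher and none lower, with a median log2 change of 1.47. Those not called were Adpgk, Cybb and Lta4h, with log2 changes of 0.18, 0.003 and -0.11. Of 17 genes of mature neutrophils 7 were called higher and none lower, with a median of 1.14. Cd177 was at 163 ± 7.62 in WT and 778 ± 247 in IL-6 KO tumor and had a log2 change of 2.18 (SE 0.23, adjusted p = 0.000801 by limma). Camp, Lcn2 and Ngp, antimicrobial and iron-binding proteins of these granules, had log2 changes of 2.06, 2.01 and 1.93, close to the 1.97 of Mpo. Among genes of mature cells, Slpi had 2.10, Ly6g 1.93, Mmp25 1.83 and S100a9 1.30. S100a8, of the same list, was not called, with a log2 change of 0.41 (SE 0.20, adjusted p = 0.174 by limma). Genes of the secondary granule and of mature cells were thus called higher in the same libraries as those of the primary granule, and no test of stage against stage was made.

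Among markers of other cell types, those of monocytes were called most often. Of 12 monocyte genes 7 were called higher and none lower (median log2 fold change 1.29), and the summed level of the list was 17230 to 19860 in WT and 18010 to 21730 in IL-6 KO tumor. Fn1 had 3.12 (SE 0.60, adjusted p = 0.008 by limma), and Ly6c2, F13a1 and Ccr2 had 2.08, 1.45 and 1.22. The summed level of the secondary granule list was 14110 to 16210 in WT and 17440 to 26910 in IL-6 KO tumor, and that of the mature neutrophil list 5612 to 6388 and 6504 to 10030, without overlap in either. Of 10 erythroid genes 1 was called, lower (Car2, -0.27), at a summed level of 13180 to 16000 in WT and 13570 to 16490 in IL-6 KO tumor. A few genes carried these sums, with WT tumor means of 8164 for Tfrc and 4571 for Car2 (erythroid) and 15370 for Crip1 (monocyte). Cybb and Lta4h (secondary granule) stood at 5001 and 5062, and Cxcr4 (mature neutrophil) at 3154. The sums are thus no measure of the RNA of those cell types. Of 8 mesenchymal and endothelial genes 1 was called, lower (Col1a2, -1.18), and of 5 T and NK cell genes none. Of 13 genes of basophils, mast cells and eosinophils, 2 were in the tumor table and 1 was tested, which was not called. Of 15 B lineage genes 3 were higher (Vpreb1 0.53, Vpreb2 0.49 and Bcr 0.42) and Ebf1 was lower (-0.30). The summed level of that list was 179200 to 185900 in WT and 198400 to 203600 in IL-6 KO tumor, also without overlap. The sum over all genes did not overlap either, at 38817792 to 44552085 in WT and 47267047 to 55592959 in IL-6 KO tumor. Against 10.6% higher and 9.16% lower over all genes, nothing is read from the counts of the erythroid, mesenchymal and endothelial, T and NK, and B lineage lists. The part of neutrophil and monocyte RNA from other cells of the marrow in the tumor result was not tested.

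**Figure D2:**
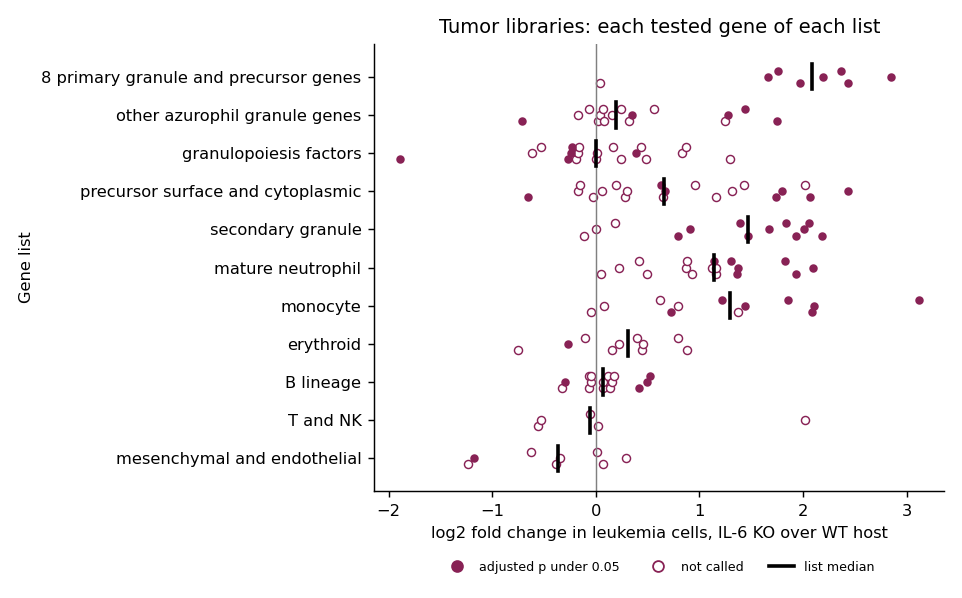
Log2 fold change (IL-6 KO over WT host) in the mCherry+ (tumor) libraries of each tested gene in 11 lists. Filled points have a limma adjusted p under 0.05, open points do not, and black bars are list medians. The medians of the 8 genes (2.08), the secondary granule (1.47), monocyte (1.29) and mature neutrophil lists (1.14) lie to the right, and those of granulopoiesis factors (0.0012) and B lineage genes (0.072) lie near 0.

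In stroma, where neutrophil precursors belong, none of the 8 genes was called. Of the 12202 genes tested there, 0.0082% (1 gene) were called in either direction, and 2 of the 8 genes had an unadjusted p under 0.05, as did 1117 of all genes. The median residual SD of a gene was 0.857 in stroma and 0.212 in tumor on the log2 scale. A gene thus needed a larger difference to be called in stroma than in tumor. The median log2 change of the 8 genes was 0.242, and 6 of the 8 were positive.

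Cebpa and Ms4a3 were the 2 genes in which the IL-6 KO stroma libraries all lay above the WT libraries, as they did in 2.54% of all genes tested. Cebpa was at 62.4, 63.4, 69.2 and 87.4 in WT and at 187, 221, 93.6 and 327 in IL-6 KO stroma, with a log2 change of 1.42 (SE 0.46, adjusted p = 0.432 by limma). Ms4a3 was at 0.827, 2.03, 3.18 and 2.45 in WT and at 27.7, 5.54, 12.9 and 66.1 in IL-6 KO stroma, with a log2 change of 2.77 (SE 1.10, adjusted p = 0.48 by limma). Neither difference passed the threshold. Without IL-6 KO library 4 the log2 change of Cebpa was 1.15 (adjusted p = 0.414 by limma), and the mean of Ms4a3 was no longer over the filter.

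For the granule protein genes in stroma the groups overlapped throughout. Mpo was at 139, 156, 133 and 265 in WT and at 131, 224, 96.4 and 597 in IL-6 KO stroma, with a log2 change of 0.29 (SE 0.54, adjusted p = 0.9 by limma), which was -0.23 without IL-6 KO library 4. Prtn3 was at 28.1, 64.6, 34.0 and 28.4 and at 27.9, 61.2, 21.7 and 123, with a log2 change of 0.34 (SE 0.67, adjusted p = 0.903 by limma), or -0.12 without that library. Both genes were highest in IL-6 KO library 4 and lowest in IL-6 KO library 3, so the extremes lay within 1 group. Ctsg was at 18.8, 53.2, 53.6 and 41.9 and at 61.1, 39.0, 10.1 and 95.8, with a log2 change of 0.02 (SE 0.74, adjusted p = 0.995 by limma), or -0.40 without library 4. Elane was the least even of the 4, at 44.1, 1.19, 47.3 and 20.8 in WT and at 3.48, 15.8, 10.3 and 50.1 in IL-6 KO stroma, with a log2 change of -0.31 (SE 1.14, adjusted p = 0.958 by limma), or -0.92 without library 4. Its residual SD was larger than that of 86.1% of the genes tested, and WT library 2 and IL-6 KO library 1 stood far under the others of their groups.

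Cebpe and Gfi1 had the same kind of overlap. Cebpe was at 45.4, 103, 189 and 102 in WT and at 229, 150.5, 29.8 and 150.2 in IL-6 KO stroma, with a log2 change of 0.20 (SE 0.65, adjusted p = 0.955 by limma), or 0.06 without IL-6 KO library 4. Gfi1 was at 46.5, 51.0, 153 and 115 and at 52.1, 127, 18.8 and 146, with a log2 change of -0.29 (SE 0.69, adjusted p = 0.925 by limma), or -0.67 without that library. In both, IL-6 KO library 3 was the lowest of all 8 libraries. It had the lowest value of its group for 6 of the 8 genes, and library 4 the highest for 7.

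**Figure D3:**
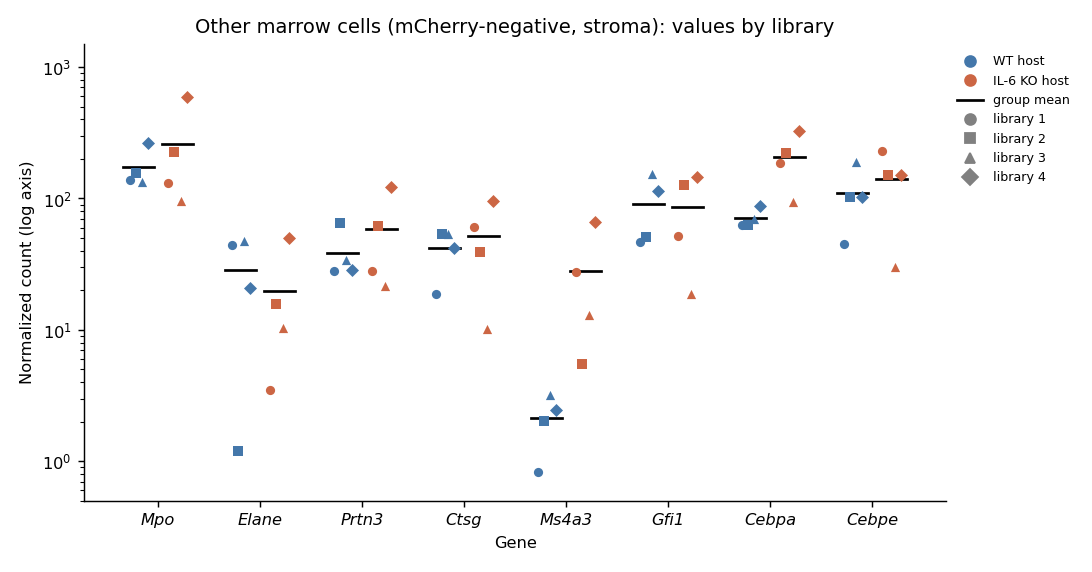
Normalized counts (log axis) of the 8 genes in mCherry-negative marrow cells of WT (blue) and IL-6 KO hosts (orange). Each marker is 1 library, its shape the library number, and the black line is the group mean (n = 4). The groups overlap for all genes but Ms4a3 and Cebpa, and the IL-6 KO libraries spread wider, with the diamond of library 4 highest in its group for 7 of the 8 genes.

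None of the related lists had a called gene in stroma. Their median log2 fold changes were 0.427 for azurophil partners, 0.071 for granulopoiesis factors, 0.626 for precursor genes, 0.497 for the secondary granule, 0.552 for mature neutrophils and 0.407 for monocytes, against -0.013 over all genes tested. By the smallest unadjusted p, the leading azurophil partners were Hexa and Lyz2, with log2 changes of 1.21 and 0.86, and the leading factors Klf5 and Cbfb, with 1.49 and 1.35. Hk3 and Igfbp4 led the precursor genes, with log2 changes of 0.85 and 1.40, and Ltf (lactoferrin) and Ngp those of the secondary granule, with 1.27 and 0.96. Among genes of mature neutrophils they were Mmp9 (gelatinase B) and Slpi, with log2 changes of 1.25 and 2.25, and among monocyte genes Cx3cr1, with 1.27. The smallest adjusted p of these genes was 0.364 (Mmp9, limma). Erythroid genes had a median of -0.587 and a summed level of 149500 to 214800 in WT and 65060 to 264700 in IL-6 KO stroma. The medians of the basophil, mast cell and eosinophil, B lineage, T and NK, and mesenchymal and endothelial lists were 0.323, -0.202, -0.775 and -0.292 over 4, 14, 3 and 6 genes tested. The part of the erythroid share in the stroma values was not tested. Pearson's r over the 8 stroma libraries was -0.056 to 0.892 (median 0.452) for the 28 pairs of the 8 genes.

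**Figure D4:**
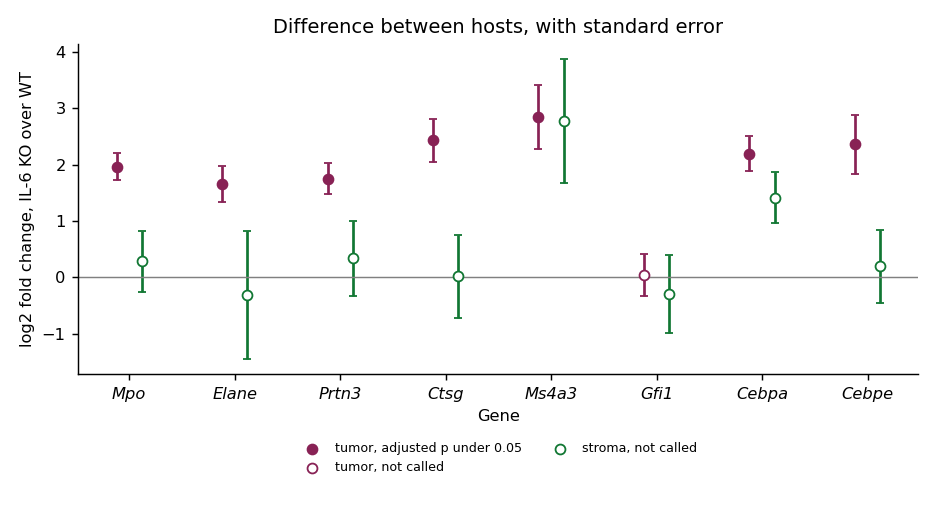
Log2 fold change (IL-6 KO over WT host) of the 8 genes in mCherry+ (tumor, purple) and mCherry-negative (stroma, green) libraries, from separate limma fits. Bars are standard errors (4 libraries against 4), filled points have an adjusted p under 0.05 and open points do not. In tumor 7 genes lie between 1.66 and 2.85 and Gfi1 at 0.04, while all 8 stroma points are open.

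The fold changes of the 2 gates are set side by side in the plot of differences with standard errors, and since the tables were normalized separately the difference between them was not tested. Within each group, levels per kilobase can be placed among all genes of the table. In WT stroma, Cebpe stood at the percentile 80.1 of all genes, Mpo at 72.6, Ctsg at 62.6 and Prtn3 at 59.9, with Gfi1, Elane and Cebpa at 55.2, 52.2 and 50.4 and Ms4a3 at 2.37. In IL-6 KO stroma the order was Cebpe at 83.2, Mpo at 79.8, Cebpa at 76.1, Prtn3 at 68.6, Ctsg at 66.2, Gfi1 at 51.8, Elane at 42.0 and Ms4a3 at 40.2. Cebpe and Mpo led in both stroma groups, and their spreads overlapped. In WT tumor the order was Mpo at 36.8, Elane at 36.4, Prtn3 at 34.7, Gfi1 at 22.5, Ctsg at 19.3, Cebpe at 18.6, Cebpa at 7.82 and Ms4a3 at 2.24. In IL-6 KO tumor Mpo reached 60.5, Elane 54.8, Prtn3 54.7, Ctsg 42.6, Cebpe 39.8, Cebpa 28.1 and Ms4a3 25.3, and Gfi1 stood at 24.3. Mpo, Elane and Prtn3 headed the order in both tumor groups and, in WT tumor, did not differ from each other beyond their spread (73.4, 71.0 and 61.1 per kilobase).

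The genes most like the set were found by Pearson's r, over the 8 libraries of a table, with the mean standardized log2 value of the 8 genes, among genes with a mean of at least 50. Of 11232 tumor genes, the 10 with the largest r were Ddx54 (0.990), Smarca4, H19, Zfp628, Brms1, Cd177 (0.983), Tbcc, Ccdc97, Numa1 and Ngp (0.978). Cd177 and Ngp are secondary granule genes, and the other 8 had log2 changes of 0.34 to 0.82 from WT means of 526 or more, so they followed the order of the libraries with a smaller difference. Of 8073 stroma genes, the 10 were Il17ra (0.991), Slfn4 (0.990), Rdh12, Os9, Lcn2 (0.978), Itgb2, Cmah, Adpgk, Ppm1h and Myo1f (0.972). Lcn2 and Adpgk are on the secondary granule list, and Itgb2 encodes an integrin chain of leukocytes, myeloid cells included. The r in tumor includes the difference between hosts, and all these values come from 8 libraries.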

How the data were processed

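RNA was sequenced from 16 libraries, 4 each of WT and IL-6 KO tumor and stroma, grouped by genotype, compartment and replicate number in the labels. The authors made the libraries with a directional kit after rRNA depletion (75-nucleotide single-end reads, mm10), quantified them with Salmon 1.3.0 and scaled the estimated counts with DESeq2 1.28.1. The deposited values are that scaled signal, 1 table of normalized counts per compartment, and not whole reads. The sums over genes were 8805689 to 17470735 in WT stroma, 33973016 to 44191950 in IL-6 KO stroma, 38817792 to 44552085 in WT tumor and 47267047 to 55592959 in IL-6 KO tumor, which are not depths. The study's methods state 1 approximate depth for all samples, and a depth for each library is not given in the sources used here. The authors' own test results (means, log2 fold changes, standard errors, Wald statistics and p-values) were deposited too and were not used here.

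Each table was fitted alone with limma 3.58.1 in R 4.3.3 on log2(normalized count + 1), genes with a mean over 10, genotype as the only term, moderated variances with a trend, with two-sided p-values adjusted by Benjamini and Hochberg and called under 0.05. A fold change on this scale understates the change of low genes. Other settings were pseudocounts of 0.5 and 5, no filter or a mean over 50, quantile normalization, median centring, scaling to the total without the 20 genes with the largest mean, array weights, each library left out and a block for the replicate number. The test was checked on simulated data. Tests of whole counts were not run.

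The 8 genes and the related lists, written from general knowledge, were chosen with earlier results of these data known. Named from each list were up to 4 called genes of smallest p for each table and direction, otherwise up to 2 with the smallest p, and the 10 genes most like the set in each table. Spi1, Kit, Cd34, Plppr3, Hba-a1, Tfrc, Crip1, Cybb, Lta4h, Cxcr4 and, in tumor, Adpgk and S100a8 fall outside this rule and were chosen after their values were seen. Gene positions came from GENCODE vM21 (13338 of 13344 stroma and 15069 of 15080 tumor identifiers found), promoter sequences from RefSeq (7 of the 8 genes), and copies of at least 97% identity over 150 nucleotides from BLAST 2.17.0, which found only Gm11505 for Mpo and Plppr3 for Prtn3, the overlapping genes. The rest was done in Python 3.11.15 with matplotlib 3.10.9, pandas 2.3.3 and SciPy 1.17.1.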

Additional observations from a re-analysis of the deposited data

Results flagged for a closer look

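Of 32 groups of 4 values (8 genes in 4 groups), 3 had a library whose gap to the nearest other library, as a share of the group's range, was over Dixon's 95% critical value for 4 samples, and chance alone gives about 1 in 20. Mpo in WT stroma library 4 was at 264.7 normalized counts, which passed the limit only just. Prtn3 in WT stroma library 2 was at 64.62, with a ratio of 0.837. Gfi1 in IL-6 KO tumor library 2 was at 88.69, with a ratio of 0.854, in the library that had the highest value of its group for 5 of the 8 genes.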

How the results depend on the processing

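In tumor, the 7 genes were called under every alternative in which they were tested, with a largest adjusted p of 0.0463 (Cebpe without IL-6 KO library 4). With a mean over 50, Ms4a3 and Cebpa were not tested and the other 5 were called. None of the 8 was called in stroma under any alternative. The tumor genes called, 2870 in all (1542 higher and 1328 lower), were 1569 to 3327 with 1 library left out, lowest without IL-6 KO library 4 (1569), IL-6 KO library 1 (1617), WT library 3 (1722) and WT library 2 (1791), and 1026 higher against 1729 lower when scaled to the total without the 20 genes with the largest mean. In stroma, 1 gene was called, 1 to 3 with 1 library left out and 4 with array weights. Gfi1 in tumor turned to -0.025 with the total scaling, to -0.099 with array weights and ranged from -0.25 to 0.35 with 1 library left out. In stroma, Elane turned to 0.075 (quantile normalization) and 0.55 (array weights), Ctsg to -0.0070 (median centring), -0.00086 (total scaling) and -0.13 (array weights), and Gfi1 to 0.14 (array weights). With 1 library left out the stroma ranges were -0.23 to 0.64 for Mpo, -1.33 to 0.25 for Elane, -0.12 to 0.69 for Prtn3, -0.40 to 0.64 for Ctsg, -0.67 to 0.30 for Gfi1 and -0.17 to 0.82 for Cebpe. The cause was not tested. Same-numbered libraries did not deviate together (r of -0.029 to 0.126 in stroma and -0.0186 to -0.000283 in tumor), and with the replicate block 2230 tumor genes and 7 of the 8, and 1 stroma gene and 0 of the 8, were called. Only an approximate depth for all samples is stated, so no limit was set for values near 0, as for Ms4a3 in WT hosts.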

Other observations

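The library numbered 3 was low in both gates of IL-6 KO mice: it had the lowest value of its group for 6 of the 8 genes in stroma and for 7 of the 8 in tumor. The summed level of the 8 genes was lowest there too, at 293.5 normalized counts in IL-6 KO stroma and at 926.2 in IL-6 KO tumor, and the tables were normalized separately. Other markers moved with it: of the 4 IL-6 KO libraries of each gate, library 3 had the lowest mean log2 value of the secondary granule (7.61 in stroma and 9.20 in tumor), mature neutrophil (6.47 and 6.63) and monocyte lists (4.97 and 7.29) and the highest of the erythroid list (12.53 and 8.52). Their part in the low values was not tested. The labels do not say whether libraries with the same number came from 1 mouse. Leaving out library 3 gave log2 changes in tumor of 2.80 for Cebpe and 3.19 for Ms4a3, against 2.36 and 2.85 with it.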
